A study of Mus musculus with 48 samples.

Results

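Conjugating enzymes make up the second phase of drug and hormone metabolism. The genes described here encode the UDP-glucuronosyltransferases (UGT), the cytosolic sulfotransferases (SULT) and the cytosolic and mitochondrial glutathione S-transferases (GST) of mouse liver. They were chosen by name from the deposited expression table: protein-coding genes whose symbol begins with Ugt1, Ugt2, Ugt3, Sult and a digit, or Gst followed by one of the class letters a, m, t, p, o, k, z and a digit. Of 59 such genes, 44 reached 10 normalized reads in 2 or more of 8 RNA libraries, among 17771 genes of 37583 in the table that passed this filter. They comprised 16 of 20 UGT, 9 of 17 SULT and 19 of 22 GST genes.

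UGT enzymes sit in the endoplasmic reticulum and attach glucuronic acid, or in some members another sugar, to bilirubin, steroids, bile acids and drugs. SULT enzymes transfer sulfate from the donor PAPS to phenols, steroids, catecholamines and bile acids, and GST enzymes couple glutathione to reactive electrophiles. The products are more water-soluble and leave the hepatocyte through transport proteins, and all 3 families are abundant in the adult liver.

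The series measured binding of C/EBPα and HNF4α, transcription factors that hepatocytes depend on, in wild-type mouse liver before birth (E15.5 and E18.5, embryonic days 15.5 and 18.5) and after it (P0.5, P14 and P60, postnatal days 0.5, 14 and 60), with 2 replicates a stage. RNA was sequenced in 3 libraries of wild-type (WT) liver, 3 of genotype C/EBPa lox/lox / Alfp-Cre (C/EBPα knockout) and 2 of genotype HNF4a lox/lox / Alfp-Cre (HNF4α knockout). The libraries are numbered as replicates, and 1 mouse per library is not shown. All groups were untreated, of the strain F1 mice (C57Bl6/CBA). The labels mention chow and high-fat feeding without saying which sample had which. Alfp-Cre joins albumin promoter and alpha-fetoprotein enhancer sequences and deletes the loxP-flanked gene in hepatocytes and bile duct cells, so blood, endothelial and stellate cells keep it. The WT label names no Cre and no loxP allele. The sample labels put the RNA mice at postnatal day 60, whereas the series text puts them at E18.5, so the age of the RNA groups cannot be told apart from these sources.

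Deposited RNA totals ranged from 13448347 to 25992243 normalized reads a library. In the C/EBPα knockout Cebpa stood at 322, 419 and 998, which is 6.9% of its WT mean, and Hnf4a at 1238 and 2444 in the HNF4α knockout, 26.6% of its WT mean. Hnf4a averaged 45.9% of its WT mean in the C/EBPα knockout (adjusted p 0.188 in limma). Cebpa averaged 50.1% in the HNF4α knockout (adjusted p 0.299), and neither passed the test. Hnf4a was not called between the knockouts either (C/EBPα minus HNF4α knockout, log2 difference 0.81 ± 0.45, adjusted p 0.36). Hepatocyte markers were present in each library. Over 7 genes they summed to 2598975 to 4130199 in WT, 244298 to 910875 in the C/EBPα knockout and 1223190 to 1631484 in the HNF4α knockout. Alb carried most of the WT sum and was lower in both knockouts, but the genes did not move alike. Ttr was at 16167 to 24266 in the C/EBPα knockout against 13254 to 28174 in WT. Ahsg was at 563732 and 555541 in the HNF4α knockout against 378361 to 464801 in WT. In whole liver, fewer cells of a type and less RNA per cell cannot be told apart. Bile duct markers (8 genes) summed to 8684 to 10716 in the C/EBPα knockout and to 1249 to 2631 in the other 5 libraries, and 6 intestine markers to 506 to 949 against 185 to 403 in WT and 62 and 89 in the HNF4α knockout. In the HNF4α knockout 6 stellate and fibroblast markers summed to 90006 and 32318 in replicates 1 and 2 against 8491 to 18743 elsewhere, with Des at 31081 in replicate 1 and Dcn at 2459 and 2129 against 1925 to 2339 in WT. Macrophage markers summed to 25228 and 26406 there against 4743 to 19454, erythroid markers to 3771027 and 2384338 against 647278 to 2128836, and pancreatic acinar markers to 809 and 708 against 128 to 521. HNF4α knockout replicate 1 held skeletal muscle RNA, with 10 markers summing to 633208 against 94 to 1381 in the other 7 libraries. The rank correlation of a library with the GC content of genes was -0.11, -0.01 and -0.49 in WT, -0.32, -0.1 and 0.28 in the C/EBPα knockout and 0.36 and 0.33 in the HNF4α knockout, so both HNF4α knockout libraries lay above all others. Y-linked genes summed to 2925 in WT replicate 1 and to 7 to 144 in the others, and Xist stood at 92 in that replicate and at 1040 to 27836 in the others, although the protocol names male mice. The part these play in the results below was not tested except where a value without a library is given.

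The sequences shown are the 250 bases before the RefSeq start (build GRCm38.p6) of Ugt2b5, Ugt2b36, Ugt2b1 and Ugt2b38, neighbours on chromosome 5 whose RNA differed in its response to the knockouts, and of Sult1a1 and Sult1d1, which fell in both. Of the 44 members, 36 had a promoter entry by symbol. The 6 shown belong to genes with 1 entry whose start lies, relative to the far end of the gene, within 100 bp of the start in the deposited table, which uses mm9. Capitals mark matches to TTGCNNAA or TTNNGCAA, a C/EBP core, where N is any base. An HNF4 core, CAAAGNNCA or TGNNCTTTG, was also searched for on both strands, and no sequence shown holds it. Of the members called against WT, Gstp2, Gstm2 and Gstk1 also met the rule on entry and distance and are not shown. Gstm2, whose RNA rose in the HNF4α knockout, held the C/EBP core at -42 relative to the start. It had C/EBPα at the promoter at P14 and P60. Gstp2 and Gstk1 held neither core. Ugt2b38, which has no peak of either factor at its promoter, was added for comparison after its values were seen.
Ugt2b5 (minus strand, chr5:87140341-87140590): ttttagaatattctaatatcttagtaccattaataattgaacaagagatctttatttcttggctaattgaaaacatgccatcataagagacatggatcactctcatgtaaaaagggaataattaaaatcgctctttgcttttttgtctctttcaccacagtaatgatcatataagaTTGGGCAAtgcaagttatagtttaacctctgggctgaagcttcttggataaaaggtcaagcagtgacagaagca
Ugt2b36 (minus strand, chr5:87092556-87092805): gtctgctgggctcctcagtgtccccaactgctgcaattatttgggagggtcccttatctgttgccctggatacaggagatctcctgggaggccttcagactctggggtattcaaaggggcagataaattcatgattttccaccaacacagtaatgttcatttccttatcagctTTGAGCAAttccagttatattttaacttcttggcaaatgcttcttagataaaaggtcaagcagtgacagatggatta
Ugt2b38 (minus strand, chr5:87424204-87424453): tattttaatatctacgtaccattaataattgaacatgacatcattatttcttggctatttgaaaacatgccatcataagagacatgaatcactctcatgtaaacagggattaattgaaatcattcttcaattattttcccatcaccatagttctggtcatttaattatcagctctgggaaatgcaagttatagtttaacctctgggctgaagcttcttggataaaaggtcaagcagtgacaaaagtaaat
Ugt2b1 (minus strand, chr5:86926504-86926753): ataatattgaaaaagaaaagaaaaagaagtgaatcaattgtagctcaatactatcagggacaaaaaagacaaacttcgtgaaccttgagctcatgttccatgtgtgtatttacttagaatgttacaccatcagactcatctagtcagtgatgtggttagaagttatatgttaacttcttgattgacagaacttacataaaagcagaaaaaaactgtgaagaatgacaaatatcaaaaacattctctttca
Sult1a1 (minus strand, chr7:126676419-126676668): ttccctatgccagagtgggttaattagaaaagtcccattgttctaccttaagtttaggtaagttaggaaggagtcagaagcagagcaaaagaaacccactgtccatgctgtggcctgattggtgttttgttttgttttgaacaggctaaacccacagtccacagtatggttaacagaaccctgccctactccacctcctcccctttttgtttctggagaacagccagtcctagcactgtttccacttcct
Sult1d1 (minus strand, chr5:87569007-87569256): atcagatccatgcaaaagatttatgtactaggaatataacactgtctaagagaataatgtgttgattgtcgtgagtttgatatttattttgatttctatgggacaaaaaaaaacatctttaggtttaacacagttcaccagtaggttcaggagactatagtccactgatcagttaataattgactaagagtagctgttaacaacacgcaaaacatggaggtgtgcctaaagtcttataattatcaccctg

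The C/EBP core occurred in 9.56% of 32851 RefSeq promoters of this length and in 5 of the 36 members with an entry (13.9%). The HNF4 core occurred in 5.49% of promoters and in 1 of the 36 (2.78%). The background counts each promoter entry, while a member counts once if any of its entries matches. Some members have more than 1 entry, so these shares are not on the same unit. In Ugt2b5 and Ugt2b36 the C/EBP match began at -74 and -77 relative to the start, and the pair aligned with 60.1% identity. Ugt2b38 aligned to Ugt2b5 with 82.3% identity and held neither core in this window. A match is a string of letters, not a shown site, and the absence of one says nothing of the factor.

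Summed over each family, the SULT genes stood apart in both knockouts, as the plot of summed levels by family shows. The 9 SULT genes totalled 5178, 6048 and 4404 normalized reads in WT, 439, 429 and 904 in the C/EBPα knockout and 570 and 510 in the HNF4α knockout, so no knockout library reached the lowest WT library. Most of this sum is Sult1a1. The 16 UGT genes totalled 7534, 6152 and 9611 in WT, 9774, 5780 and 4129 in the C/EBPα knockout and 2607 and 3303 in the HNF4α knockout; the C/EBPα knockout overlapped WT and the HNF4α knockout lay below it. The 19 GST genes totalled 23185, 28726 and 20075 in WT, 13308, 18764 and 20117 in the C/EBPα knockout and 20481 and 19168 in the HNF4α knockout. GST sums thus overlapped between WT and each knockout. Per 1000000 of a library's total, GST sums were 985 to 1282 in WT and 990 to 1225 in the C/EBPα knockout, and the HNF4α knockout lay below WT on this scale at 788 and 958. On the same scale SULT sums were 216 to 270 in WT against 26.7 to 55 in the C/EBPα knockout. Sums were not tested.

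**Figure D1:**
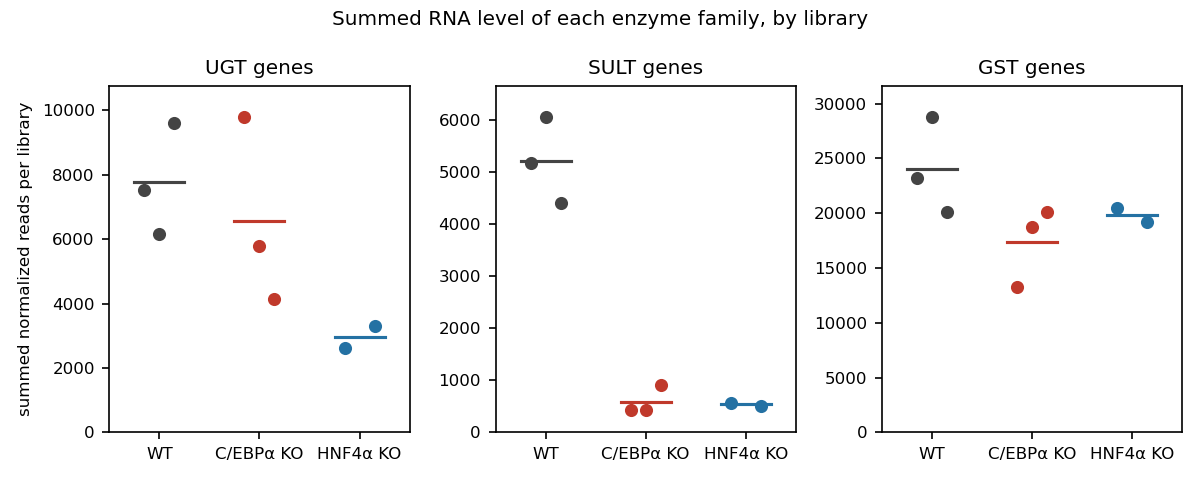
Summed normalized reads per library (vertical axes, from 0) of the 16 UGT, 9 SULT and 19 GST members, with 1 point a library and a line at the group mean. SULT sums lie between 4404 and 6048 in WT and between 429 and 904 in the knockouts, while GST sums overlap.

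In the C/EBPα knockout 12 members fell and 3 rose, and 29 did not pass the test. Change was tested with limma on log2(value + 1), with Benjamini-Hochberg adjustment over all 17771 genes and an adjusted p under 0.05 as the threshold; folds are on that scale and understate the change of low genes. Across all genes, 2.86% were called lower and 0.883% higher in the C/EBPα knockout, against 27.3% and 6.82% of the members. By family, 4 UGT genes fell and 1 rose, 5 SULT genes fell and 1 rose, and 3 GST genes fell and 1 rose. The median log2 change of the 44 members was -0.45, and 0.03 over all genes tested. Scaling by library totals moves the median of all genes to 0.527 in this contrast, and 10 members then fell and 5 rose.

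In the HNF4α knockout 10 members fell and 2 rose, and 32 did not pass the test. Across all genes, 3.17% were called lower and 1.54% higher, against 22.7% and 4.55% of the members. The falls comprised 6 UGT, 3 SULT and 1 GST gene, and both rises were GST genes. The median log2 change of the members was -1.32, against 0.02 over all genes. Both knockout contrasts share the WT libraries, so their calls are not independent. Knockout and WT levels did not overlap for 18.8% of all genes in the C/EBPα contrast and 44.6% in the HNF4α contrast. Among the members these shares were 52.3% and 54.5%. Without HNF4α knockout replicate 1, the library with muscle RNA, 5 members kept their call (Gsta3, Sult1d1, Sult3a1, Ugt1a1 and Ugt2b1), all lower; without replicate 2, 7 did, and Gsta3, Gstm2, Gstp2, Ugt2b1 and Ugt2b36 were lost. Leaving out WT replicate 1 kept 8 of the 12 (lost were Gstm2, Gstp2, Ugt2b1 and Ugt2b36) and 10 of the 15 C/EBPα calls (lost were Gstk1, Gstm3, Gstm7, Sult2a2 and Ugt3a2). Without WT replicate 3 and C/EBPα knockout replicate 1, 9 of 15 calls held in the C/EBPα contrast and 7 of 12 in the HNF4α contrast. With the GC trend of each library removed, 10 of the 12 HNF4α calls held, and those of Gstm2 and Gstp2 were lost.

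**Figure D2:**
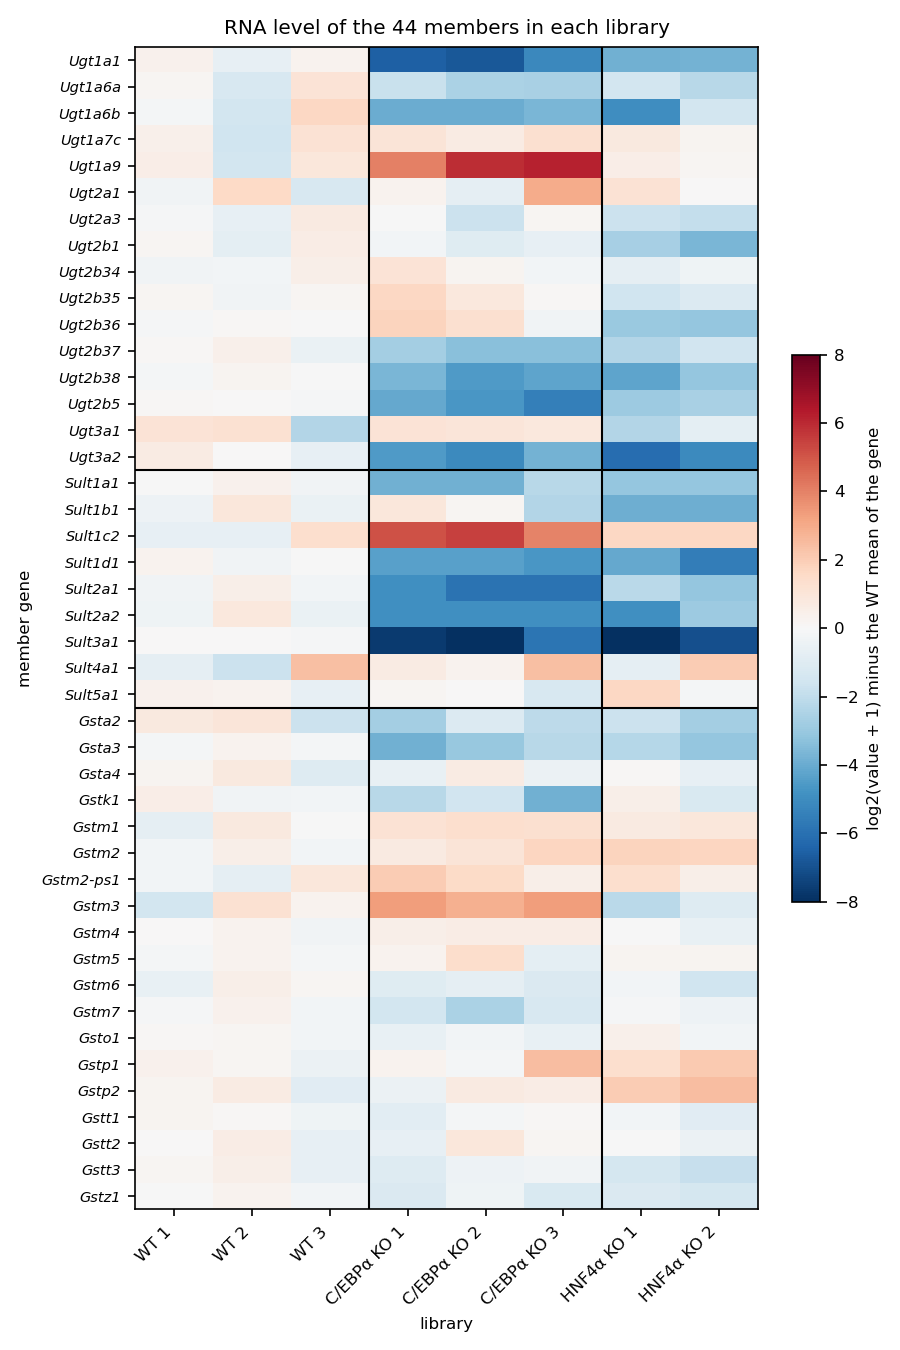
Level of each of the 44 members (rows, by family) in each of 8 libraries (columns), as log2(value + 1) minus the WT mean of the gene, with blue below and red above WT. Ugt1a1, Sult1d1 and Sult3a1 are blue in all 5 knockout libraries, and Ugt1a9 and Sult1c2 are deep red in the C/EBPα knockout.

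The Ugt1 locus on chromosome 1 joins alternative first exons to shared later exons. The deposited table lists 5 of its members here as overlapping genes, so reads on shared exons cannot be assigned to 1 of them. Ugt1a1 (90108534 to 90115572, mm9), which conjugates bilirubin, was at 1810, 896 and 1709 in WT, 14, 12 and 39 in the C/EBPα knockout and 96 and 102 in the HNF4α knockout. It fell in the C/EBPα knockout (log2 change ± SE -6.15 ± 0.50, adjusted p 6.7e-05) and in the HNF4α knockout (-3.81 ± 0.56, adjusted p 0.00288). The groups did not overlap, and the C/EBPα knockout libraries were the lowest.
Ugt1a9, a phenol-conjugating form that starts upstream at 89967375, ran the other way: 3, 0 and 4 in WT, 43, 160 and 194 in the C/EBPα knockout and 3 and 2 in the HNF4α knockout. It rose in the C/EBPα knockout by 5.36 ± 0.88 (adjusted p 0.00553), and its change in the HNF4α knockout was 0.35 ± 0.98 (adjusted p 0.866). Ugt1a6a and Ugt1a6b, listed with the same start, changed by -2.30 ± 0.58 and -3.88 ± 1.03 in the C/EBPα knockout and missed the threshold (adjusted p 0.0546 and 0.0703). Ugt1a7c was at 5 to 42 in the 8 libraries and was not called.

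On chromosome 5, 9 Ugt2 members and 2 SULT members lie between 87318792 and 87998052 (mm9), and their levels did not move as a block. Ugt2b enzymes glucuronidate steroids, bile acids and drugs. Ugt2b5 (chromosome 5, 87553981 to 87569365, mm9) was at 1240, 1215 and 1109 in WT, 68, 46 and 26 in the C/EBPα knockout and 155 and 195 in the HNF4α knockout. It fell in both, with a log2 change of -4.74 ± 0.40 (adjusted p 7.49e-05) in the C/EBPα knockout and -2.76 ± 0.45 (adjusted p 0.00484) in the HNF4α knockout, and all 5 knockout libraries lay below WT. Its neighbour Ugt2b36 was at 165, 187 and 166 in WT, 589, 422 and 143 in the C/EBPα knockout and 21 and 19 in the HNF4α knockout. It fell in the HNF4α knockout (log2 change -3.05 ± 0.57, adjusted p 0.0116). In the C/EBPα knockout its change was 0.93 ± 0.51 (adjusted p 0.473), with replicate 3 below WT and the other two above.

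Ugt2b38 was at 167, 211 and 179 in WT, 14, 7 and 9 in the C/EBPα knockout and 9 and 21 in the HNF4α knockout. It fell in both, with a log2 change of -4.13 ± 0.56 (adjusted p 0.00157) in the C/EBPα knockout and -3.65 ± 0.62 (adjusted p 0.00683) in the HNF4α knockout. Its knockout libraries all lay at or below 21. Ugt2b1 was at 158, 81 and 213 in WT, 118, 72 and 89 in the C/EBPα knockout and 21 and 10 in the HNF4α knockout. It fell in the HNF4α knockout (log2 change -3.18 ± 0.59, adjusted p 0.0104), and in the C/EBPα knockout its libraries overlapped WT (-0.61 ± 0.52, adjusted p 0.691). Ugt2b34, the UGT with the highest WT mean, was at 2595, 2685 and 4406 in WT, 6543, 3706 and 2702 in the C/EBPα knockout and 1905 and 2487 in the HNF4α knockout, and was called in neither contrast (0.36 ± 0.39 and -0.52 ± 0.44). The Ugt2b members have a GC content of 34.7% to 38.2% in the deposited table. With each library's GC trend removed, the calls of Ugt2b5, Ugt2b36, Ugt2b38 and Ugt2b1 against WT were kept.

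Ugt3a2, on chromosome 15, belongs to a family that uses sugars other than glucuronic acid. It was at 108, 69 and 43 in WT, 2, 1 and 4 in the C/EBPα knockout and 0 and 1 in the HNF4α knockout. It fell in both, with a log2 change of -4.48 ± 0.80 (adjusted p 0.00859) in the C/EBPα knockout and -5.62 ± 0.89 (adjusted p 0.00445) in the HNF4α knockout. Its neighbour Ugt3a1 stayed at 0 to 11 in the 8 libraries and was not called.

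Among sulfotransferases, Sult1a1 (chromosome 7, 133816379 to 133819946, mm9), the main phenol sulfotransferase of liver, was at 3624, 4726 and 3082 in WT, 261, 262 and 812 in the C/EBPα knockout and 435 and 446 in the HNF4α knockout. It fell in both, with a log2 change of -3.29 ± 0.43 (adjusted p 0.00146) in the C/EBPα knockout and -3.09 ± 0.49 (adjusted p 0.00432) in the HNF4α knockout, and no knockout library reached WT. Sult1d1 (chromosome 5, 87983670 to 87998052, mm9), which sulfates catecholamines, was at 1024, 707 and 823 in WT, 40, 41 and 33 in the C/EBPα knockout and 49 and 17 in the HNF4α knockout. It fell in both, with a log2 change of -4.44 ± 0.46 (adjusted p 0.00027) in the C/EBPα knockout and -4.81 ± 0.51 (adjusted p 0.00061) in the HNF4α knockout. Sult3a1 (chromosome 10, 33583741 to 33599322, mm9), an amine sulfotransferase with higher levels in female mouse liver, was at 409, 398 and 377 in WT, 1, 0 and 6 in the C/EBPα knockout and 0 and 2 in the HNF4α knockout. Its change was -7.36 ± 0.83 (adjusted p 0.000476) and -7.83 ± 0.92 (adjusted p 0.000885), values that depend on the added 1. The part of sex in these levels was not tested.

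Sult2a1 and Sult2a2, which sulfate bile acids and steroids, are near-identical genes on chromosome 7 between which reads can be shared. Sult2a1 was at 48, 81 and 50 in WT, 1, 0 and 0 in the C/EBPα knockout and 12 and 6 in the HNF4α knockout. It fell in the C/EBPα knockout (log2 change -5.55 ± 0.75, adjusted p 0.00161). Sult2a2 was at 23, 54 and 20 in WT, at 0 in all 3 C/EBPα knockout libraries and at 0 and 3 in the HNF4α knockout, and it was called lower in the C/EBPα knockout (adjusted p 0.0139), a call that leaving out WT replicate 1 or 2 ended. In the HNF4α knockout neither passed the threshold (adjusted p 0.106 and 0.0609). No library there overlapped WT for either gene, which also held for 44.6% of all genes tested. Sult1c2 was the 1 SULT gene that rose: 0, 0 and 3 in WT, 54, 70 and 24 in the C/EBPα knockout and 4 and 4 in the HNF4α knockout (4.86 ± 0.87 in the C/EBPα contrast, adjusted p 0.00904). Leaving out C/EBPα knockout replicate 1 or 2 ended that call (adjusted p up to 0.057). Sult1b1 held 22, 56 and 20 reads in WT against 1 in each HNF4α knockout library and missed the threshold there (-3.92 ± 1.00, adjusted p 0.0505).

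Gsta3 (chromosome 1, 21230670 to 21255442, mm9), an alpha-class enzyme and the GST with the highest WT mean, was at 7079, 9423 and 7133 in WT, 544, 945 and 1699 in the C/EBPα knockout and 1638 and 926 in the HNF4α knockout. It fell in both, with a log2 change of -3.03 ± 0.43 (adjusted p 0.00202) in the C/EBPα knockout and -2.66 ± 0.48 (adjusted p 0.00913) in the HNF4α knockout, without overlap. Gstk1, the mitochondrial and peroxisomal kappa-class enzyme, was at 807, 474 and 484 in WT, 122, 197 and 38 in the C/EBPα knockout and 791 and 249 in the HNF4α knockout, and fell in the C/EBPα knockout (log2 change -2.54 ± 0.61, adjusted p 0.0437). Gstm7, a mu-class enzyme, was at 1080, 1442 and 970 in WT, 418, 197 and 472 in the C/EBPα knockout and 1075 and 877 in the HNF4α knockout, and fell in the C/EBPα knockout (log2 change -1.76 ± 0.38, adjusted p 0.0254). Leaving out any WT library or C/EBPα knockout replicate 1 ended both calls, as did leaving out replicate 3 for Gstk1 and replicate 2 for Gstm7, and library totals as the scale ended both (adjusted p 0.076 and 0.0948).

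Gstm3 (chromosome 3, 107745251 to 107772201, mm9) stood at 10, 70 and 37 in WT, 308, 226 and 318 in the C/EBPα knockout and 6 and 14 in the HNF4α knockout. It rose in the C/EBPα knockout by 3.19 ± 0.68 (adjusted p 0.0251), a call that leaving out any C/EBPα knockout library or WT replicate 1 or 3 ended (adjusted p up to 0.099), and changed by -1.60 ± 0.76 in the HNF4α knockout (adjusted p 0.264). The bile duct and intestine marker sums, 8684 to 10716 and 506 to 949 in the C/EBPα knockout, were above WT in the same libraries in which Gstm3, Ugt1a9 and Sult1c2 were high, and their part was not tested. Of the intestine list, Cdx1, Cdx2 and Sis were at 0 or 1 in each library, and Vil1 and Fabp2 carried the difference (308 to 336 and 109 to 576 in the C/EBPα knockout, 23 to 56 and 27 to 36 in WT). Lgals4, the remaining gene of that list, went the other way, at 44, 33 and 89 in the C/EBPα knockout against 347, 196 and 110 in WT. The annotated span of Gstm3 overlaps that of Gstm6, which was at 64 to 273 in the 8 libraries. Gstp2 (chromosome 19, 4040291 to 4042221, mm9), a pi-class enzyme with a near-identical neighbour, was at 885, 1165 and 403 in WT, 528, 1246 and 1147 in the C/EBPα knockout and 3110 and 4217 in the HNF4α knockout. It rose in the HNF4α knockout by 2.28 ± 0.51 (adjusted p 0.0284). The neighbour Gstp1 ranged from 685 to 1199 in WT, against 2412 and 4038 in the HNF4α knockout (1.71 ± 0.66, adjusted p 0.175), and reads could be split between them. Gstm2 was at 106, 176 and 107 in WT, 204, 263 and 411 in the C/EBPα knockout and 433 and 425 in the HNF4α knockout. It rose in the HNF4α knockout by 1.76 ± 0.43 (adjusted p 0.0429). Its change in the C/EBPα knockout was 1.15 ± 0.39 (adjusted p 0.165), and it was not called between the knockouts (-0.61 ± 0.43, adjusted p 0.478). With library totals as the scale, limma called Gstm2 in the C/EBPα contrast (adjusted p 0.0367) and not in the HNF4α contrast (adjusted p 0.0533). Removing the GC trend ended both HNF4α calls (adjusted p 0.0552 for Gstp2 and 0.0596 for Gstm2), as did leaving out either HNF4α knockout library or WT replicate 1 or 3. The stellate and fibroblast, macrophage, erythroid and acinar marker sums were also highest in these 2 libraries, as given above, and their part was not tested.

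Gstt1, a theta-class enzyme, was at 3472, 3260 and 2408 in WT, 1709, 2681 and 3186 in the C/EBPα knockout and 2640 and 1603 in the HNF4α knockout. Gstz1, which isomerizes maleylacetoacetate in tyrosine breakdown, was at 3602, 4464 and 3165 in WT, 1685, 2903 and 1584 in the C/EBPα knockout and 1628 and 1409 in the HNF4α knockout. Neither was called by limma, with adjusted p of 0.211 and 0.0756 for Gstz1. Gstz1 did not overlap WT in either knockout, which held for 18.8% and 44.6% of all genes in the C/EBPα and HNF4α contrasts.

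**Figure D3:**
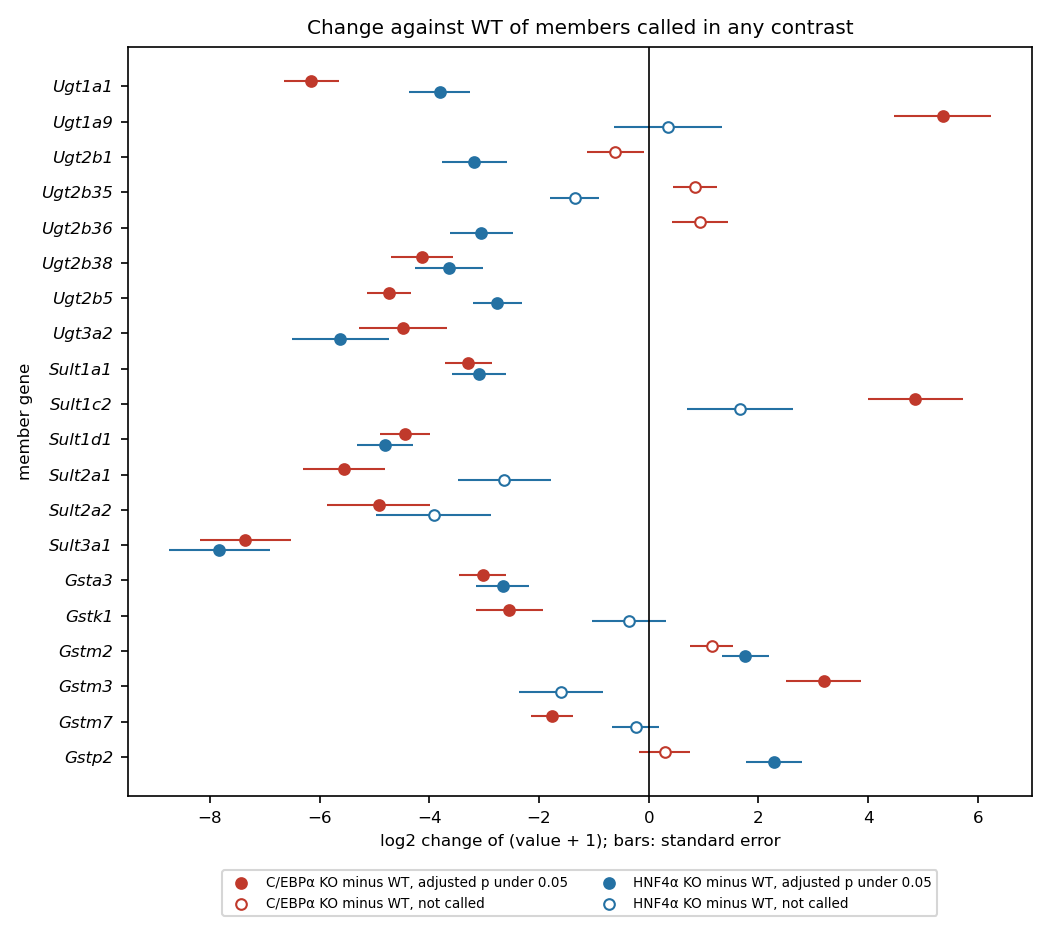
Log2 change of (value + 1) against WT (horizontal axis, bars ± SE) for the members called in any contrast, in the C/EBPα knockout (red) and the HNF4α knockout (blue), filled where adjusted p was under 0.05. Filled points right of 0 are Ugt1a9, Sult1c2 and Gstm3 in the C/EBPα knockout and Gstp2 and Gstm2 in the HNF4α knockout. Gstm2 is also right of 0, unfilled, in the C/EBPα knockout. Most filled points lie to the left.

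Set directly against each other, the knockouts differed for 7 members, of which 5 were higher and 2 lower in the C/EBPα knockout. Across all genes, 1.61% were called higher and 1.87% lower. Higher in the C/EBPα knockout were Ugt1a9 (log2 difference 5.01 ± 0.98), Gstm3 (4.78 ± 0.76), Ugt2b36 (3.98 ± 0.57), Ugt2b1 (2.57 ± 0.59) and Ugt2b35 (2.20 ± 0.45). Ugt2b35 was at 780, 578 and 775 in WT, 2208, 1247 and 748 in the C/EBPα knockout and 228 and 335 in the HNF4α knockout, and was called against WT in neither. Lower in the C/EBPα knockout were Ugt1a1 (-2.33 ± 0.56) and Ugt2b5 (-1.98 ± 0.45). For Sult1a1, Sult1d1 and Sult3a1 the difference between the knockouts did not pass the test, with 95% intervals on the log2 scale of -1.28 to 0.86, -0.75 to 1.5 and -1.56 to 2.51. Without HNF4α knockout replicate 1 limma called 0 members, with 13 at an unadjusted p under 0.05, and without replicate 2 it called 2, Gstm3 and Ugt2b36. Without WT replicate 3 and C/EBPα knockout replicate 1 it called 0, with 14 at an unadjusted p under 0.05. With library totals as the scale, the 5 higher genes kept their call and the 2 lower ones lost it, and 0 of the 7 calls held in every fit that left out 1 of the 8 libraries.

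The genes that supply, regulate and follow conjugation were described from 5 lists, 61 of 62 genes of which were tested. In the C/EBPα knockout 12 fell and 1 rose. In the HNF4α knockout 17 fell and limma called 0 higher, with 26 of 61 at an unadjusted p under 0.05 in either direction. These counts include the deleted genes themselves, Cebpa (-3.98 ± 0.44) and Hnf4a (-1.95 ± 0.45). The background over all 17771 genes was 2.86% lower and 0.883% higher in the C/EBPα contrast, and 3.17% and 1.54% in the HNF4α contrast. In limma, 2562 and 3657 of these genes had an unadjusted p under 0.05 in the 2 contrasts. The same background applies to each list below. Among 18 genes of cofactor supply, 6 fell in the C/EBPα knockout. Ugp2, which makes the UDP-glucose from which UDP-glucuronic acid derives, fell (log2 change -2.58 ± 0.36), as did Papss2, which makes the sulfate donor PAPS (-2.40 ± 0.34). Cth, Cbs and Mat1a, enzymes on the path from methionine to the cysteine of glutathione, fell (-4.36 ± 0.39, -2.51 ± 0.33 and -4.35 ± 0.69), and so did Ggt1, which splits extracellular glutathione (-1.38 ± 0.31). In the HNF4α knockout 4 of the 18 fell: Ugp2, Ggt1, Cth and the sulfate transporter gene Slc26a1 (-3.04 ± 0.37). Papss2 and Cbs were not called there (-0.28 ± 0.38 and 0.10 ± 0.37) and were lower in the C/EBPα knockout than in the HNF4α knockout (-2.12 ± 0.38 and -2.61 ± 0.37).

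Of 21 other conjugating and detoxifying enzymes, 3 fell and 1 rose in the C/EBPα knockout and 6 fell in the HNF4α knockout. Mgst1, a microsomal GST, fell in both (-3.18 ± 0.33 and -2.08 ± 0.37), as did the carboxylesterase gene Ces1d (-6.14 ± 0.46 and -4.46 ± 0.51). Gnmt fell in the C/EBPα knockout (-2.79 ± 0.50), and Aldh1a1, which oxidizes retinaldehyde, rose there by 1.98 ± 0.42. In the HNF4α knockout the methyltransferase genes Tpmt and Inmt, the glycine conjugation gene Glyat and the epoxide hydrolase gene Ephx2 fell (-2.65 ± 0.57, -2.99 ± 0.73, -4.56 ± 0.82 and -3.18 ± 0.42). Of 6 exporters, Abcc2, the canalicular pump for conjugates, and Abcc6 fell in the HNF4α knockout (-2.96 ± 0.65 and -4.99 ± 0.70). In the C/EBPα knockout limma called 0 exporters, with 1 at an unadjusted p under 0.05. Of 4 genes that remove conjugates limma called 0 against WT, with 0 and 1 at an unadjusted p under 0.05 in the C/EBPα and HNF4α contrasts. Among these 4, Arsa, a lysosomal sulfatase, was at 556, 366 and 364 in WT, 243, 329 and 387 in the C/EBPα knockout and 989 and 874 in the HNF4α knockout, and was lower in the C/EBPα than in the HNF4α knockout (-1.56 ± 0.37, adjusted p 0.0432).

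Among 12 regulators, the receptor genes Nr1i3 (CAR) and Nr1h4 (FXR) fell in both knockouts, with log2 changes of -4.46 ± 0.82 and -4.74 ± 0.92 for Nr1i3 and -3.22 ± 0.36 and -3.21 ± 0.40 for Nr1h4. Nr1i2 (PXR) and Ppara fell in the HNF4α knockout (-3.86 ± 0.45 and -3.09 ± 0.69). Nr1i2 was higher in the C/EBPα knockout than in the HNF4α knockout (2.68 ± 0.45). Of the calls in the 5 lists, 9 of 13 in the C/EBPα contrast, 7 of 17 in the HNF4α contrast and 0 of 13 between the knockouts held whichever library was left out; Aldh1a1, Ggt1, Gnmt and Nr1i3 were lost in the first, and Abcc2, Cth, Glyat, Hnf4a, Inmt, Mgst1, Nr1i3, Ppara, Tpmt and Ugp2 in the HNF4α contrast. Removing the GC trend ended the HNF4α calls of Cth and Ugp2 and the difference of Arsa between the knockouts.

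Binding near the start of the members is given stage by stage, beside the share of protein-coding genes tested. A gene counted as bound where each replicate had a peak within 5 kb of its start, and the lists give no peak heights. C/EBPα was near 10 of 44 members at E15.5, where 15% of 14942 protein-coding genes tested were bound, and near 35 at E18.5 (background 57.3%), 36 at P0.5 (72.4%), 33 at P14 (43%) and 36 at P60 (44.2%). At E15.5 the bound members were 5 UGT and 5 GST genes, with no SULT gene among them. The deposited lists held 13434 and 16900 peaks at E15.5 and 40636 to 121624 later. HNF4α was near 28 members at E15.5 (background 41.3%), 16 at E18.5 (14.1%), 25 at P0.5 (35.5%), 31 at P14 (34%) and 36 at P60 (44%). Both P0.5 replicate lists of HNF4α are identical and count as 1. Both factors were near 8 members at E15.5 (background 10.7%), 15 at E18.5 (12%), 25 at P0.5 (31.7%), 28 at P14 (24.6%) and 33 at P60 (30.8%), which is 18.2%, 34.1%, 56.8%, 63.6% and 75% of the members.

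**Figure D4:**
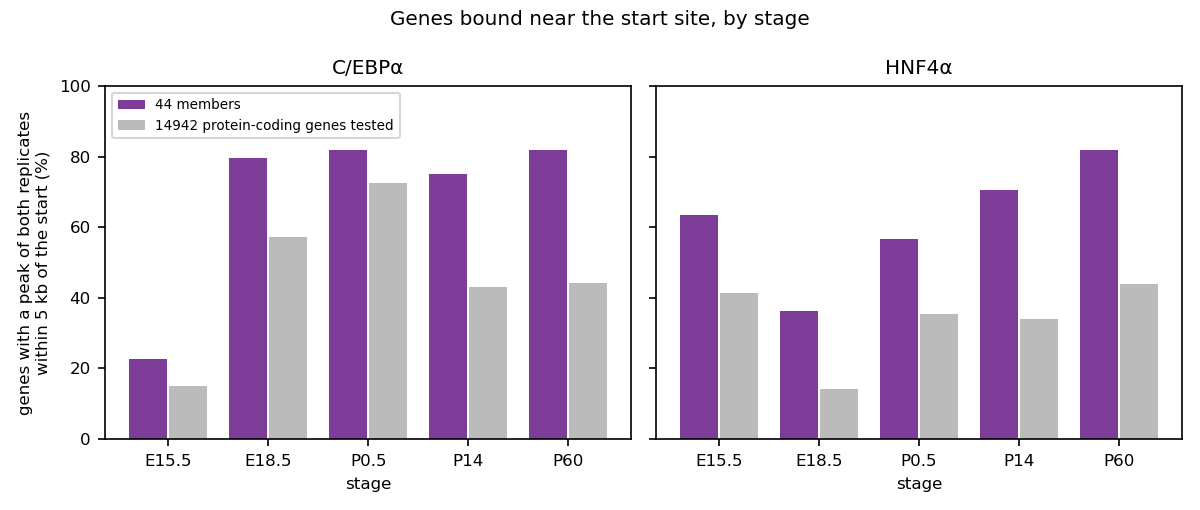
Share of genes (%) with a peak of both replicates within 5 kb of the start, at 5 stages, for the 44 members (purple) and 14942 protein-coding genes tested (grey). The members' bars stand above the background at each stage, by least for C/EBPα at E15.5 and P0.5.

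Read against these backgrounds, the members were bound more often than protein-coding genes at each stage in the 5 kb window. The margins were smallest for C/EBPα at E15.5 (22.7% against 15%) and P0.5 (81.8% against 72.4%). At P0.5 a 25 kb window held C/EBPα for 41 of 44 members and 93.4% of protein-coding genes, which leaves no excess. These shares were not tested. C/EBPα was near 10 members at all 5 stages: Ugt1a1, Ugt1a6a, Ugt1a6b, Ugt2b1, Ugt2b5, Gsta2, Gsta3, Gstm1, Gstm2 and Gstt1. These were the same 10 as at E15.5, the stage with the shortest C/EBPα peak lists. HNF4α was near 14 members at all 5 stages, among them Sult1a1, Ugt1a9, Ugt2b1, Ugt2b36 and Gstm3. The share of protein-coding genes bound at all 5 stages was not counted. Gstm2-ps1, Gstm5, Sult4a1 and Ugt2a1 had neither factor within 5 kb at any stage. Sequence copies such as these clusters hold fewer reads that map to 1 place, so a missing peak does not show that a site is empty.

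**Figure D5:**
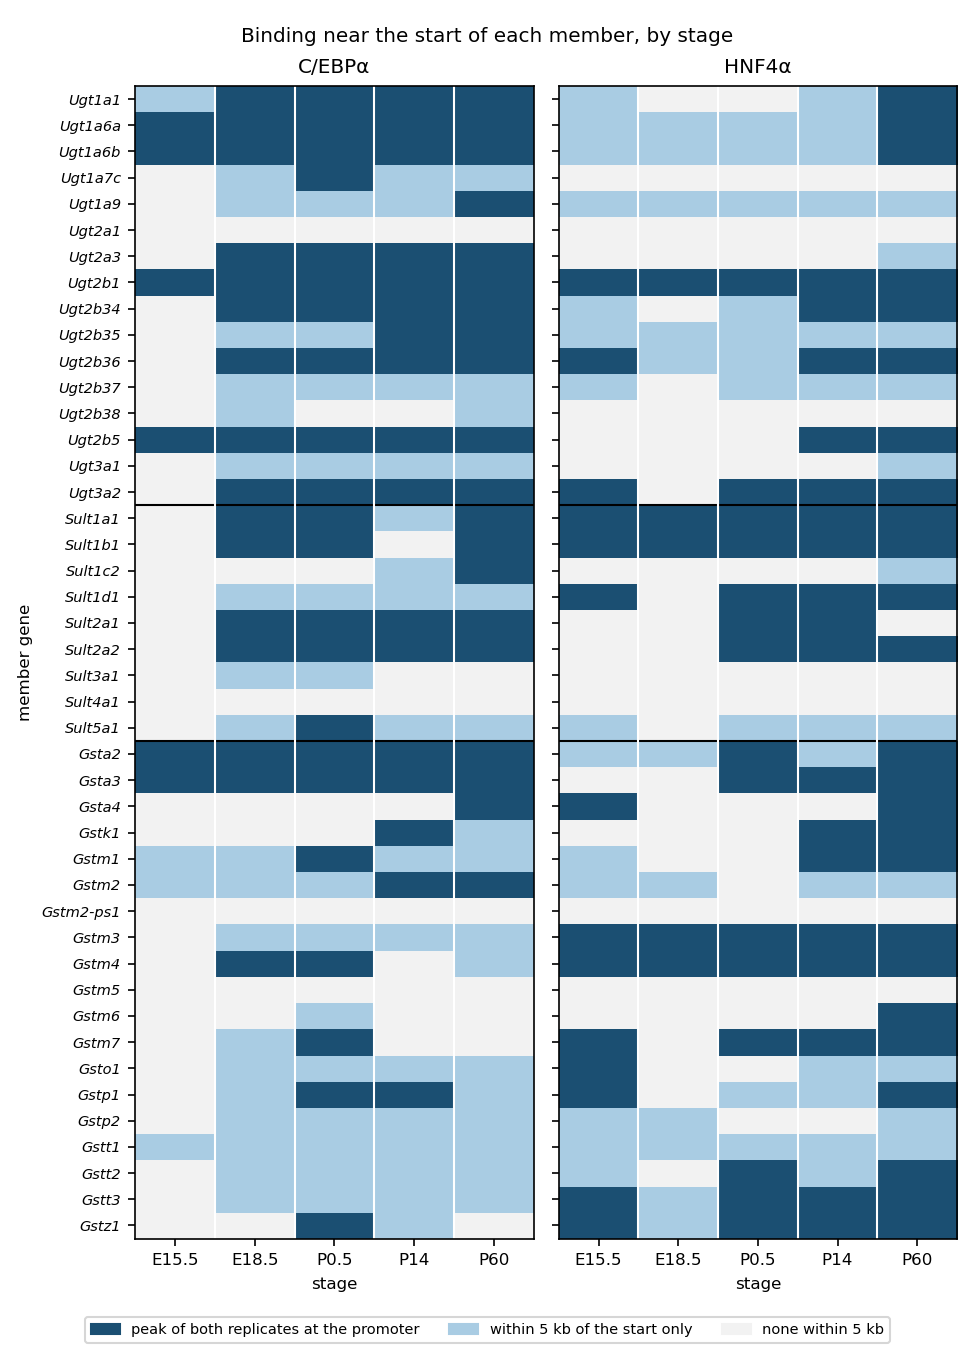
Binding of C/EBPα (left) and HNF4α (right) near each of the 44 members (rows, by family) at 5 stages (columns): dark where a peak of both replicates overlaps the promoter (250 bp before to 50 bp after the start), light where it lies within 5 kb only, pale where there is none. Ugt2b5 is dark for C/EBPα at all 5 stages and for HNF4α at P14 and P60 only, and Sult3a1 is pale for HNF4α throughout.

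At Ugt2b5, whose promoter is printed above, C/EBPα regions of both replicates were centred at -102, -71, -89, -79 and -91 bp from the start in order of stage, and HNF4α regions lay at the promoter at P14 and P60. At Ugt2b36 the C/EBPα regions from E18.5 on were centred at -260 to -45 bp, and HNF4α peaks of both replicates overlapped the promoter at P14 and P60; at E15.5 a peak of each replicate did so with no base in common. Ugt2b1 had both factors at the promoter at all 5 stages and was called in the HNF4α contrast alone of the contrasts against WT. Ugt2b38 had C/EBPα within 5 kb at E18.5 and P60 and HNF4α at no stage, the nearest HNF4α region being 7762 bp away at E18.5. Ugt1a1 had C/EBPα at the promoter from E18.5 on and HNF4α at P60.

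Sult1a1 had HNF4α at the promoter at all 5 stages, centred at -233 to -13 bp, and C/EBPα there at E18.5, P0.5 and P60. Sult1d1 had HNF4α at the promoter at E15.5, P0.5, P14 and P60, while the nearest C/EBPα regions were centred at -1235 to -1177 bp from E18.5 on. Sult3a1, which was near 0 in both knockouts, had C/EBPα within 5 kb at E18.5 and P0.5 only and no HNF4α within 5 kb at any stage; its nearest HNF4α region was 16259 bp away, at P60. Sult2a1 and Sult2a2 had C/EBPα at the promoter from E18.5 on. Gstm3, which rose in the C/EBPα knockout, had HNF4α at the promoter at all 5 stages and C/EBPα 2547 to 2690 bp away from E18.5 on. Gsta3 had C/EBPα at the promoter at all 5 stages and HNF4α from P0.5 on.

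Set beside the RNA changes at E18.5, the age that the series text gives for the RNA, 11 of 35 members bound by C/EBPα fell and 2 rose in the C/EBPα knockout (median log2 change -0.54), and 1 of 9 not bound fell and 1 rose (median 0.31). Among protein-coding genes tested, 4.97% of those bound and 0.894% of those not bound fell. For HNF4α, 3 of 16 bound members fell and 2 rose (median -1.61), and 7 of 28 not bound fell (median -0.44), beside 13.6% and 2% of protein-coding genes. Of these 7, Gsta3, Sult1d1, Ugt1a1, Ugt2b5 and Ugt3a2 were bound by HNF4α at another stage, and Sult3a1 and Ugt2b38 at none. At P60, the age the sample labels give, 10 of 36 members bound by C/EBPα fell and 3 rose, and 2 of 8 not bound fell, beside 5.98% and 1.06% of protein-coding genes. For HNF4α at P60, 8 of 36 bound fell and 2 rose, and 2 of 8 not bound fell, beside 7.16% and 0.873%.

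The 15 genes that failed the filter were Ugt1a2, Ugt1a5, Ugt1a8 and Ugt1a10, Sult1c1, Sult1e1, Sult2a3, Sult2a4, Sult2a5, Sult2a6, Sult2b1 and Sult6b1, and Gsta1, Gsto2 and Gstt4. Nearest below the threshold were Sult2a5 (10, 8 and 4 in WT, and 0, 0, 0, 1 and 0 in the knockouts), Gsto2 and Sult2b1, with second highest values of 8, 7 and 7. Nearest above it were Ugt3a1, Ugt2a1 and Sult4a1, with 10, 14 and 16. The 21 members outside the naming rule had WT means of 5.7 to 1380.7 and were called in no contrast. Gstm2-ps1 is labelled protein-coding in the table but named as a pseudogene, and its reads may come from Gstm genes. Antisense and overlapping transcripts could add reads, since strand use in counting is not given in the sources used here.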

How the data were processed

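Peaks and RNA were measured in whole mouse liver. Per the labels and submitters' processing notes, the tools named are bcl2fastq, FastQC, BWA, TopHat2, Cufflinks, bedtools, DESeq and MACS 1.4, with build mm9; their settings, and whether counting used strand, are not given in the sources used here. The RNA values deposited by the authors are DESeq-normalized reads rounded to whole numbers, treated as a score and not as counts, so raw depth is unknown; the deposited GC content of each gene is a fraction. The peak lists deposited by the authors hold positions, 1 list per replicate, with a score of 0 throughout. Replicates are separate samples by label; where they are not separate mice, p-values measure only technical spread.

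The 17771 genes that reached 10 in 2 or more of 8 libraries were fitted with limma 3.58.1 (R 4.3.3) with a mean trend on log2(value + 1), 3 contrasts in 1 fit, two-sided, Benjamini-Hochberg adjusted over all genes; the script was tested on simulated data. Intervals are 95% limits. Tables were joined with pandas 2.3.3 in Python 3.11.15. Peaks counted from 1 shared base. Alternatives covered the pseudocount (10), filter, scaling, trend, groups fitted, replicate block, left-out libraries, window (1 and 25 kb) and replicates required; the GC alternatives were chosen after seeing the data. Values in every library were given for members called against WT (at most 15 by adjusted p in each contrast), the 3 of each family with the highest WT mean, and members called between knockouts (at most 10); called genes of the other lists were named. Other genes named by value (Ugt1a6a, Ugt1a6b, Ugt1a7c, Ugt3a1, Sult1b1, Gstm6, Gstp1) were chosen after their values were seen. Members and lists were chosen with earlier results of these data known. RNA polymerase II and input samples were not analysed here. Promoter sequences are from RefSeq (GRCm38.p6).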

Additional observations from a re-analysis of the deposited data

How the results depend on the processing

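No called member or named gene of the other lists changed direction, under the alternatives run, in a contrast in which it was called. Where a gene was not called its sign could change, as for Gstk1 in the HNF4α contrast (-1.19 to 0.47 with 1 library left out). For members named by the rule, 1038 alternatives kept their side of the threshold, 117 lost the call and 18 gained one, and for called genes of the other lists 1069, 148 and 7 did; of those for counts, 93 stayed within 1.5 times and 21 did not. Leaving out 1 library gave 10 to 16 calls in the C/EBPα contrast (15 with all libraries), 5 to 18 in the HNF4α contrast (12) and 0 to 10 between the knockouts (7); 9, 3 and 0 of the calls held in every such fit. Without WT replicate 3 and C/EBPα knockout replicate 1, limma called 9, 7 and 0 members, the last with 14 at an unadjusted p under 0.05. Between the knockouts, no filter gave 4 calls and fitting only both groups gave 3. The replicate block gave 14, 11 and 3 calls; same-numbered libraries correlated at -0.23 to 0.19, so the numbers were not taken to pair the samples. Over all genes, the HNF4α contrast had 836 calls, 1267 with only both groups fitted and 486 with the replicate block. Library totals moved the median of all genes to 0.567 between the knockouts, where 21.1% of calls were lower against 53.6% as deposited, and gave 40.6% lower against 76.4% in the C/EBPα contrast.

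Shares in parentheses are of protein-coding genes. A 1 kb window gave 22 members for C/EBPα at E18.5 (36.2%), and for HNF4α 18 at E15.5 (24.3%), 8 at E18.5 (6.33%) and 16 at P0.5 (25.2%). A 25 kb window gave 24 for C/EBPα at E15.5 (37.5%) and 34 for HNF4α at E18.5 (42.5%), and peaks of at least 1 replicate 17 (25.2%) and 25 (27.5%) there. For C/EBPα the 25 kb window gave 41 at E18.5 (86.2%) and 41 at P0.5 (93.4%). C/EBPα at E15.5 ranged from 11 to 16 members with 1 replicate left out. A stricter peak threshold could not be run, since the lists hold no heights. Depth of the raw libraries is unknown, which limits what is said of genes near 0.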
